A study of Arabidopsis thaliana with 8 samples.

Results

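The chloroplast genome of Arabidopsis thaliana encodes part of the machinery of photosynthesis, and 46 of its genes are described here. They are the psa, psb, pet, atp and ndh genes, rbcL, and the photosystem I assembly genes ycf3 and ycf4. They were chosen by locus, with earlier results of these data known, and they make up 46 of the 27415 loci with a coding length in the deposited counts. The other chloroplast loci with a length number 42, and include second copies of duplicated loci, among them that of ndhB. By product, the 46 genes comprise 15 for photosystem II, 5 for photosystem I, 6 for the cytochrome b6f complex, 6 for the ATP synthase, 11 for the NDH complex, 2 for photosystem I assembly, and rbcL.

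The study measured ribosome footprints and mRNA of plants under a dark condition and under a blue light condition. Each combination of assay and light had 2 libraries, which gives 4 groups and 8 libraries. The series title concerns alternative transcription start sites and upstream reading frames, which were not analysed here. The labels give no genotype, tissue, age, light intensity or duration, and do not say whether the replicates came from separate plants or whether poly(A) RNA was selected. The p-values below therefore measure only the spread between these libraries, which may be technical. As a check of the light label, the footprints of ELIP1, LHCB1.1 and HY5, nuclear genes induced by light, rose by 6.05, 3.42 and 3.73 on the log2 scale (edgeR, 3 of 3 called).

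Photosystem II splits water, the cytochrome b6f complex passes its electrons on, and photosystem I lifts them to the level that reduces NADP. The proton gradient built on the way drives the ATP synthase, the NDH complex returns electrons from the stroma to the chain, and Rubisco, whose large subunit is RbcL, fixes carbon dioxide. Each of these complexes is a mosaic of chloroplast-encoded and nucleus-encoded subunits. Chloroplast genes are transcribed in clusters into long RNAs that are cut and stabilised by nucleus-encoded proteins, and control at the level of translation is well known in this organelle. The D1 protein, the product of psbA, is damaged by light and replaced by new synthesis, and its light-induced translation is a textbook case.

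In ribosome profiling, RNase I destroys mRNA that no ribosome shields, and the surviving footprints are sequenced and counted on each coding sequence. The mRNA libraries held 688630 to 847469 counts, of which 335615 to 386051 were on chloroplast loci. The footprint libraries held 2888624 to 4919808 counts, of which 24014 to 41735 were on chloroplast loci. The 46 genes took 104118 to 120634 counts in the mRNA libraries and 22098 to 39256 in the footprint libraries. No member was at 0 in any library, but 3 to 5 members lay under 10 counts in each footprint library. In mRNA, 1 or 2 members did. The chloroplast share of each library averaged 45.4% for dark mRNA and 47.2% for blue-light mRNA, against 0.898% and 0.793% for footprints. The footprint values overlapped, at 0.831% and 0.965% in the dark and 0.848% and 0.739% in blue light. In mRNA, blue replicate 2 (48.7%) stood above the other libraries (45.2% to 45.7%). A shift of this share moves all members at once, so calls of single members are not separate evidence. In whole samples, fewer chloroplasts or cells and less RNA in each cannot be told apart.

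Most chloroplast footprints lay on photosynthesis genes, and most chloroplast mRNA counts did not. Of chloroplast footprints the 46 genes held 92.1% ± 0.12 (SD, n = 2) in dark libraries and 94.0% ± 0.15 in blue-light libraries. Of chloroplast mRNA they held 31.8% ± 0.76 in dark libraries and 30.9% ± 0.21 in blue-light libraries. The second copy of ndhB counts among the other loci. Without second copies of duplicated loci the 46 genes held 39.9% and 38.7% of chloroplast mRNA. With 2 libraries against 2, an exact two-sided permutation test cannot give a p under 0.333, so shares are given as values with their SD and without a test.

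In the footprint pool the share of rbcL was larger in blue light and that of every other complex was smaller, but without rbcL in the pool most of these differences were much smaller or turned. rbcL held 43.9% ± 0.35 of chloroplast footprints in the dark and 56.3% ± 0.50 in blue light. Photosystem II, psbA included, went from 24.4% ± 0.45 to 18.7% ± 0.014, and photosystem I from 12.2% ± 0.53 to 9.90% ± 0.40. The ATP synthase went from 7.15% ± 0.11 to 5.53% ± 0.11. The cytochrome b6f genes went from 3.26% ± 0.32 to 2.65% ± 0.12, and the NDH genes from 1.15% ± 0.086 to 0.755% ± 0.024. Within photosystem II, psbA went the other way, from 0.621% ± 0.060 to 2.24% ± 0.14. Shares of one pool are tied to each other. With rbcL taken out of the footprint pool, a choice made after seeing the data, photosystem I held 21.7% ± 1.1 (dark) and 22.7% ± 0.66 (blue light), and photosystem II 43.4% ± 0.54 and 42.8% ± 0.46. The cytochrome b6f genes then held 5.80% ± 0.53 and 6.07% ± 0.21, and the ATP synthase 12.7% ± 0.28 and 12.7% ± 0.10. The NDH genes, at 2.04% ± 0.14 and 1.73% ± 0.035, were lower in blue light. In mRNA the same shares differed little between dark and blue light, with 9.46% and 9.19% for photosystem II, 3.35% and 3.19% for photosystem I, and 13.0% and 13.1% for NDH. The rbcL share of mRNA was 1.37% ± 0.21 in the dark and 0.961% ± 0.044 in blue light.

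**Figure D1:**
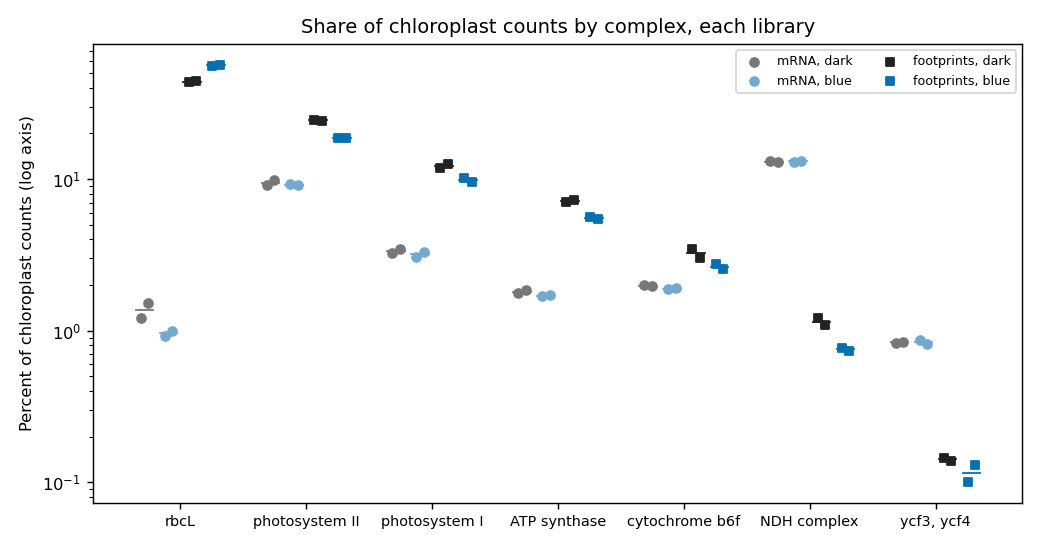
Percent of chloroplast counts (log axis) held by each complex, with 1 point for each of the 8 libraries. The rbcL footprint points lie near 43.9% (dark) and 56.3% (blue light), and the NDH genes lie near 13.0% in mRNA but at 1.15% or less of footprints on average.

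Footprint and mRNA shares stood in very unequal ratios between the complexes. The ratio of the footprint share to the mRNA share of a gene was taken within each light condition, as a value relative to all chloroplast loci. RNA selection and use of strand are not given, so a ratio may reflect how mRNA was counted as well as ribosome use. Which of these it reflects was not tested. In the dark the ratio for rbcL was 32.1, and it was above 1 for all 5 photosystem I genes, all 6 ATP synthase genes and 13 of 15 photosystem II genes. The cytochrome b6f complex was mixed, with 4 of 6 genes above 1 in the dark and 3 in blue light. In the dark petA, at 0.833, and petL, at 0.320, lay below 1. The median was 6.35 for photosystem I, 6.38 for photosystem II and 6.94 for the ATP synthase. By contrast all 11 ndh genes lay below 1, from 0.0053 for ndhG to 0.246 for ndhA, with a median of 0.0965. The same 11 lay below 1 in blue light, from 0.0065 to 0.148. ycf3 and ycf4, which help assemble photosystem I and are not part of it, were at 0.611 and 0.0852 in the dark. The exceptions in photosystem II in the dark were psbA, at 0.978, and psbI, at 0.0699, whose mRNA count may include reads of neighbouring RNAs. In blue light psbA stood at 4.29, rbcL at 58.6 and psbI at 0.0528. The largest ratio in the dark was 229, for petN, a small cytochrome b6f subunit with only 7 and 1 mRNA counts in the 2 dark libraries. The next largest, for atpH, psaI, psbN and psbH, also rested on small mRNA shares, from 0.0040% to 0.0273%.

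Per length, rbcL stood far above all other members in footprints. Levels per length are counts per 100 codons in a library scaled to 1e6 chloroplast counts. The length used is 9 codons short of the coding sequence for most members, for example 30 against 39 for psbF. This weighs most on small genes. Whether reads on those codons were counted is not known, so the order of small subunits is uncertain. rbcL had a footprint level of 93324 ± 740 (SD, n = 2) in the dark, and psbH, a small photosystem II subunit, came next at 18756 ± 1036. psbF, psbK, psbL and psaC followed, from 18527 to 15807. The reaction-centre gene psbD was at 14573 and its neighbour psbC at 13918. The psbA footprint level was 1805 ± 173 in the dark, rank 33 of 46, and 6521 ± 396 in blue light, rank 19. The lowest footprint level in the dark was that of ndhC, 33.5 ± 5.6, and the highest level was 2782 times the lowest. In mRNA, psbI led with 181225 in the dark and 190614 in blue light, more than all other members. Without coordinates, reads of neighbouring or overlapping RNAs could not be told apart from those of psbI. petL (13232) and ndhB (11732) came next in the dark. Across the 46 members the Spearman correlation of mRNA level between dark and blue light was 0.988, and that of footprint level was 0.967. Between mRNA and footprint level it was -0.176 in either light. These points share libraries, depth and base composition, and the values only describe these libraries.

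**Figure D2:**
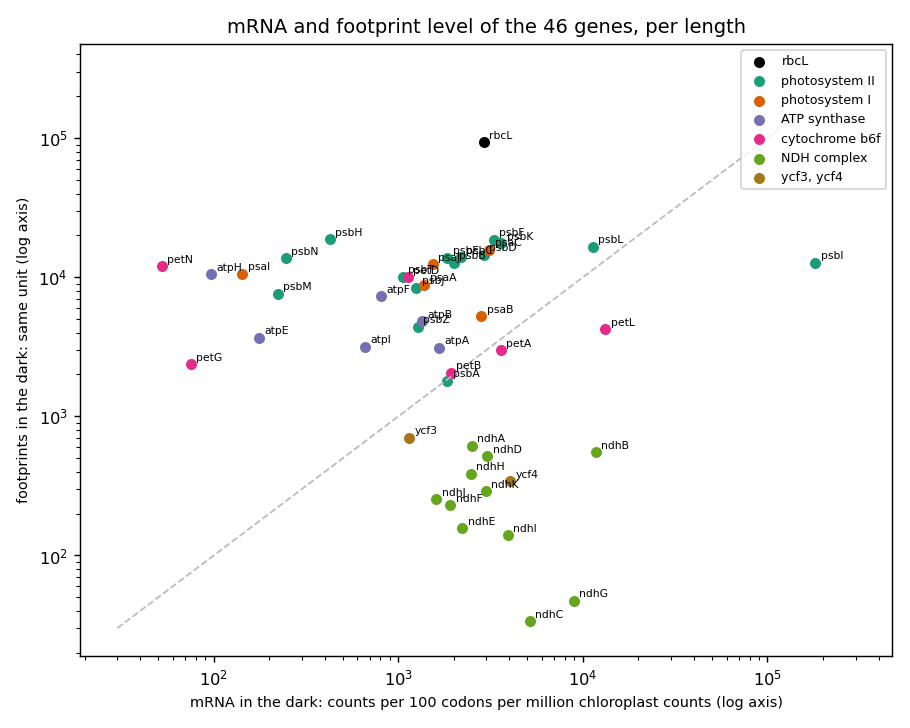
Footprint level against mRNA level of the 46 genes in the dark, both as counts per 100 codons after scaling each library to 1e6 chloroplast counts, on log axes, with 1 point per gene coloured by complex. The ndh genes lie low in footprints at middle to high mRNA levels, rbcL lies highest in footprints at 93324, and psbI lies farthest right at 181225.

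Blue light was then compared with darkness for each gene, in mRNA, in footprints and in their ratio, which is the translational efficiency. Each test was edgeR's quasi-likelihood test over all genes with TMM scaling, and genes with a Benjamini-Hochberg adjusted p below 0.05 were called. Fold changes are log2 values of blue light over dark with an approximate SE, and levels per library are CPM, counts scaled by TMM to a library of 1e6.

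In footprints, psbA and rbcL rose while 21 other members, drawn from every complex but Rubisco, fell by 0.28 to 0.75. Of 41 members tested, 2 rose and the 21 that fell make up 51.2%. Over all 15788 genes tested, 37.8% were called, with 20.9% higher and 16.9% lower. The median change of the 41 was -0.40, against -0.02 over all genes tested. Of the other chloroplast loci, 12 of 36 tested fell and 0 rose, with a median of -0.33. Both blue-light libraries lay below both dark libraries for 27 of the 41 members, against 33.9% of all genes, and above them for 4, against 33.6%. The 5 members not tested for low counts were ndhC, ndhE, ndhG, ndhI and ndhJ. The DESeq2 Wald test kept psbA and rbcL as higher and called 6 members lower: psbB, psbC, psbD, psbF, atpB and atpF. Of all genes it called 13.2% higher and 7.51% lower. The other footprint falls named below were called by edgeR and not by DESeq2. The fall depended on single libraries. Many lower calls were lost when footprint replicate 2 of blue light or of dark was left out. Without that blue-light library, the share of members called lower was no longer above that of all genes. The median was then -0.26, against -0.02 over all genes. Without dark replicate 2 it was -0.32, against -0.005. psbB, psbD, psbF and atpF stayed called lower, and psbA and rbcL higher, whichever footprint library was left out.

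The calls also rested on what members were measured against. Scaled to chloroplast counts without rbcL and psbA, an alternative chosen after seeing the data, the median was -0.044, 0 members fell, and 12 of 41 turned from negative to positive while 24 stayed negative. The 4 that then rose were psbA by 2.27 (adjusted p = 6.6e-25), rbcL by 0.78 (adjusted p = 0.0059), petG by 1.05 (adjusted p = 0.00638) and petL by 0.86 (adjusted p = 0.016), all in edgeR. That scaling moved the median of all genes to 0.35, and 31.6% of them were called higher and 3.76% lower. Scaled to all chloroplast counts, psbA rose by 1.85 and 12 members fell, while the rise of rbcL, 0.36, was not called (edgeR adjusted p = 0.278). Of all genes, 14.2% were then called higher and 11.7% lower.

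In mRNA psbM was the only member called. Of 45 members tested, 1 rose and 0 fell, against 2.85% and 1.05% of all 7822 genes tested (3.9% either way), and 8 had an unadjusted p under 0.05. DESeq2 called 0 in either direction, against 2.88% higher and 0.963% lower of all genes. The median change was 0.23, against 0.03 over all genes and 0.26 over the other 42 chloroplast loci, and it turned to -0.046 when scaled to chloroplast counts, which moved the median of all genes to -0.24. Under that scaling 0 members were called higher and rbcL was called lower, by 0.51 (edgeR adjusted p = 0.0205). Of all genes, 1.74% were then called higher and 1.25% lower. For 28 of 45 members both blue-light libraries lay above both dark ones, against 22.5% of all genes, and for rbcL alone both lay below, against 19.9%. petN was not tested. In simulated data with known changes, this mRNA test recovered 10% of changes of 1 log2 unit and 67% of changes of 2 over all genes and expression levels. The footprint test recovered 81% and 98%. The changed genes were drawn from all genes tested, whose median SE in mRNA was 0.51, against 0.19 for members. Recovery of changes in members was not measured.

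Efficiency fell for 13 members and rose for psbA. Of 40 members tested, 1 was higher and 13 lower, which is 32.5%, against 5.2% higher and 4.93% lower of all 6169 genes tested, 10.1% in all. The median was -0.75, against -0.06 over all genes and -0.68 over the 36 other chloroplast loci tested, of which 6 were lower. None of the 13 lower calls held in all of the 8 fits that each left out 1 library, and psbA held in every one. All or nearly all of the 13 were lost when either footprint replicate 2 was left out. The share of members called lower then did not exceed that of all genes. The median was -0.68 without dark replicate 2 and -0.66 without blue replicate 2, against -0.04 and -0.06 over all genes. Lower calls were also lost without mRNA blue replicate 2 and without either footprint replicate 1. In simulated data this test recovered 6% of changes of 1 log2 unit and 64% of changes of 2. These were drawn from all genes tested, with a median SE of 0.48, against 0.26 for members. Recovery in members was not measured. DESeq2 called 16 lower and psbA higher, but psaJ, psbK and atpI, lower by edgeR, were not among the 16. Of all genes it called 5.88% lower and 4.94% higher. The calls of psaJ, psbK and atpI were also lost with limma-voom, with scaling on nuclear genes and with the replicate block. Scaled to chloroplast counts, 1 member was lower, against 1.18% of all genes. The median was then -0.39, while that of all genes moved to 0.29.

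**Figure D3:**
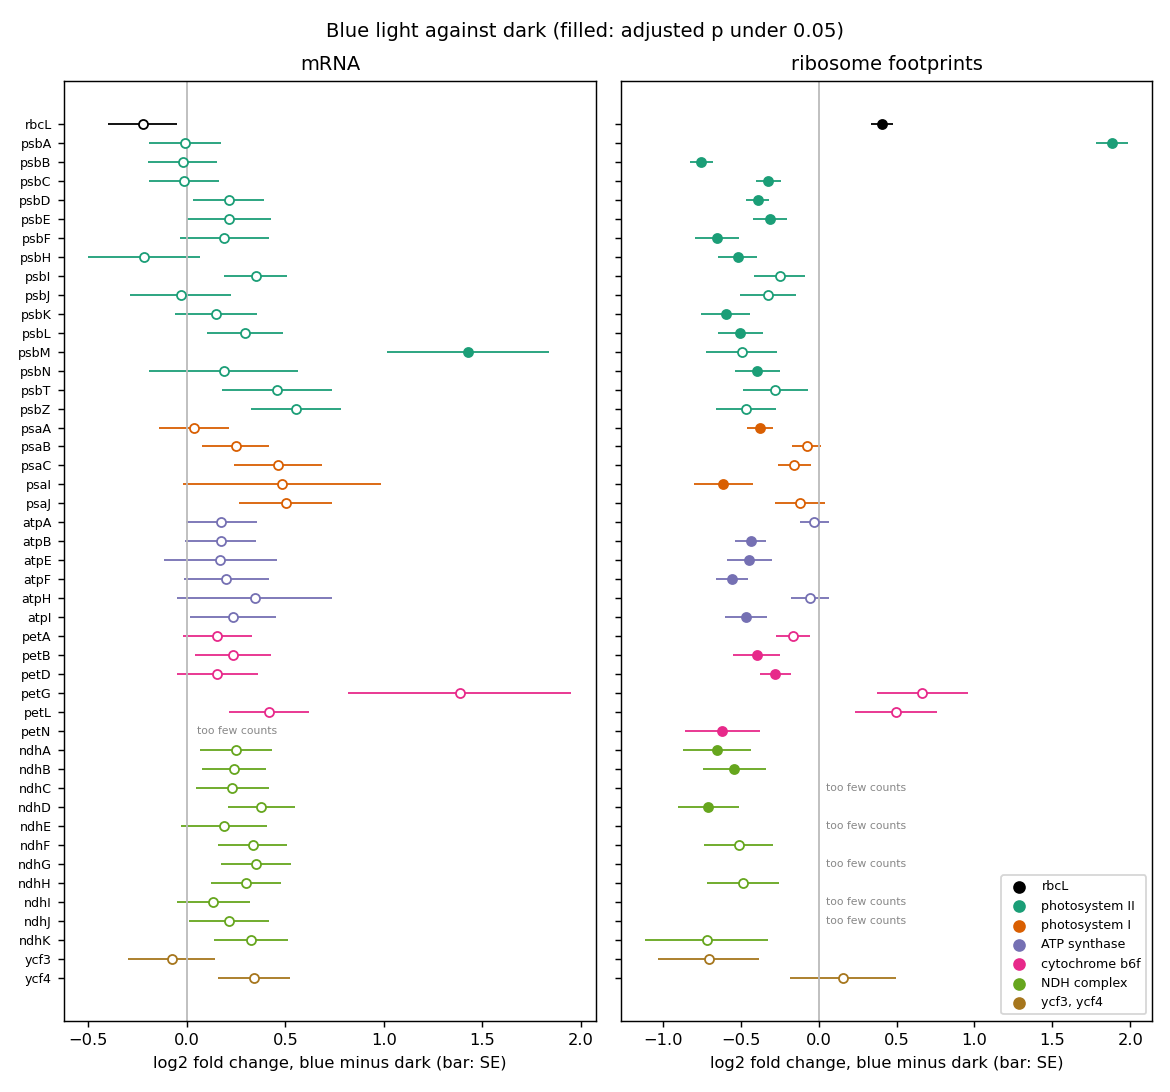
Log2 fold change of blue light over dark for each member in mRNA and in footprints, with bars for the approximate SE, and filled points where the adjusted p was under 0.05. psbA at 1.88 and rbcL at 0.41 are the only filled footprint points on the right, 21 are filled on the left, and psbM is the only filled point in mRNA. Scaled to chloroplast counts without rbcL and psbA, 0 members would be filled on the left in footprints, against 3.76% of all genes called lower.

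Photosystem II held both the strongest rise and the strongest called fall. psbA (locus ATCG00020) encodes D1, which with D2 forms the reaction centre. Its mRNA measured 2869 and 2924 CPM in the dark and 2950 and 2815 in blue light. Its footprints measured 44.9 and 59.2 CPM in the dark and 197 and 188 in blue light. The mRNA groups overlapped and the footprint groups stood far apart. Footprints rose by 1.88 ± 0.10 (edgeR adjusted p = 5.34e-15) and efficiency by 1.76 ± 0.23 (edgeR adjusted p = 1.01e-05), while mRNA changed by -0.01 ± 0.18 (edgeR adjusted p = 0.995).

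psbB (ATCG00680) encodes the inner antenna protein CP47. It had 4684 and 4429 CPM of mRNA in the dark and 4453 and 4529 in blue light, and 508 and 553 CPM of footprints in the dark against 324 and 305 in blue light. The mRNA values overlapped and the footprints were lower in both blue-light libraries. They fell by 0.75 ± 0.07 (edgeR adjusted p = 8.34e-10), and efficiency fell by 0.86 ± 0.22 (edgeR adjusted p = 0.0103). psbC encodes the other inner antenna protein, CP43. It had 4781 and 4486 CPM of mRNA in the dark against 4484 and 4698 in blue light, and 497 and 582 CPM of footprints against 465 and 395. Its footprints fell by 0.32 ± 0.08 (edgeR adjusted p = 0.00185), and its efficiency was not called.

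psbD (ATCG00270) encodes D2, the partner of D1. It had 4945 and 4234 CPM of mRNA in the dark against 4989 and 5646 in blue light, and 403 and 432 CPM of footprints against 335 and 300. Every blue-light mRNA value lay above the dark ones and every footprint value below, but the mRNA change of 0.21 ± 0.18 was not called (edgeR adjusted p = 0.721). Footprints fell by 0.39 ± 0.07 (edgeR adjusted p = 9.2e-05) and efficiency by 0.74 ± 0.23 (edgeR adjusted p = 0.0408). D1 and D2 stand in equal number in the reaction centre. The ratio of psbA to psbD footprints per codon was 0.112 and 0.137 in the dark and 0.588 and 0.628 in blue light. The same ratio in mRNA was 0.580 and 0.691 in the dark and 0.591 and 0.498 in blue light. The footprint ratio was thus higher in both blue-light libraries and the mRNA ratio overlapped between the groups.

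Several small photosystem II subunits were also lower in footprints. psbE and psbF encode the alpha and beta subunits of cytochrome b559. psbE had 694 and 562 CPM of mRNA in the dark against 727 and 732 in blue light, and 85.4 and 84.1 CPM of footprints against 73.99 and 61.5. psbF had 486 and 420 CPM of mRNA in the dark against 458 and 578 in blue light, and 41.7 and 51.3 CPM of footprints against 30.4 and 28.8. In both genes the blue-light footprints lay below the dark ones, with a fall of 0.31 ± 0.11 for psbE and 0.65 ± 0.14 for psbF (edgeR adjusted p = 0.0226 and 0.000418). Efficiency fell by 0.66 ± 0.20 and 0.97 ± 0.23 (edgeR adjusted p = 0.0352 and 0.00568). psbL, from the same cluster, encodes a subunit near the contact of the monomers. It had 1523 and 1473 CPM of mRNA in the dark against 1736 and 1939 in blue light, and 42.0 and 37.2 CPM of footprints against 29.5 and 25.9. Footprints fell by 0.50 ± 0.14 (edgeR adjusted p = 0.00613) and efficiency by 0.93 ± 0.24 (edgeR adjusted p = 0.0126).

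psbK encodes a small subunit next to CP43. It had 929 and 798 CPM of mRNA in the dark against 858 and 1055 in blue light, and 66.9 and 85.9 CPM of footprints against 63.0 and 35.8. Blue replicate 2 was the low one, and the fall was 0.60 ± 0.16 in footprints and 0.88 ± 0.26 in efficiency (edgeR adjusted p = 0.00312 and 0.0322). psbZ, whose product lies at the rim of the complex near the antenna, had 291 and 323 CPM of mRNA in the dark against 466 and 434 in blue light, and 18.4 and 20.5 CPM of footprints against 15.6 and 12.2. The assays went opposite ways in every library. Neither was called alone by edgeR, at 0.55 ± 0.23 in mRNA (edgeR adjusted p = 0.247) and -0.46 ± 0.19 in footprints (edgeR adjusted p = 0.0596), although with only genes of at least 10 CPM tested the footprint fall was called (edgeR adjusted p = 0.0437). Efficiency fell by 1.15 ± 0.25 (edgeR adjusted p = 0.0034).

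psbM (ATCG00220), a small subunit at the contact of the monomers, was the member called in mRNA. It had 30.4 and 21.1 CPM of mRNA in the dark against 43.5 and 96.9 in blue light, from 24, 18, 30 and 56 counts. Its footprints were 11.97 and 20.2 CPM in the dark against 11.2 and 11.9 in blue light. The mRNA rise of 1.43 ± 0.41 (edgeR adjusted p = 0.0445) leaned on blue replicate 2. Without that library the adjusted p was 0.727, without dark replicate 2 it was 0.159, and without blue replicate 1 it was 0.0604. Efficiency fell by 2.04 ± 0.48 (edgeR adjusted p = 0.0063). Among the other photosystem II genes, footprints of psbH fell by 0.52 ± 0.13 and those of psbN, an assembly factor, by 0.39 ± 0.15 (edgeR adjusted p = 0.00156 and 0.0329). psbN is encoded opposite psbT and psbH, and whether the counting used strand is not given in the sources used here, so reads of the 2 strands may be mixed. psbI, psbJ and psbT were called by edgeR in none of the 3 tests. DESeq2 called psbI lower in efficiency, by 0.77 (adjusted p = 0.00539), and psbT was called lower in footprints without blue replicate 1 (edgeR adjusted p = 0.0285).

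**Figure D4:**
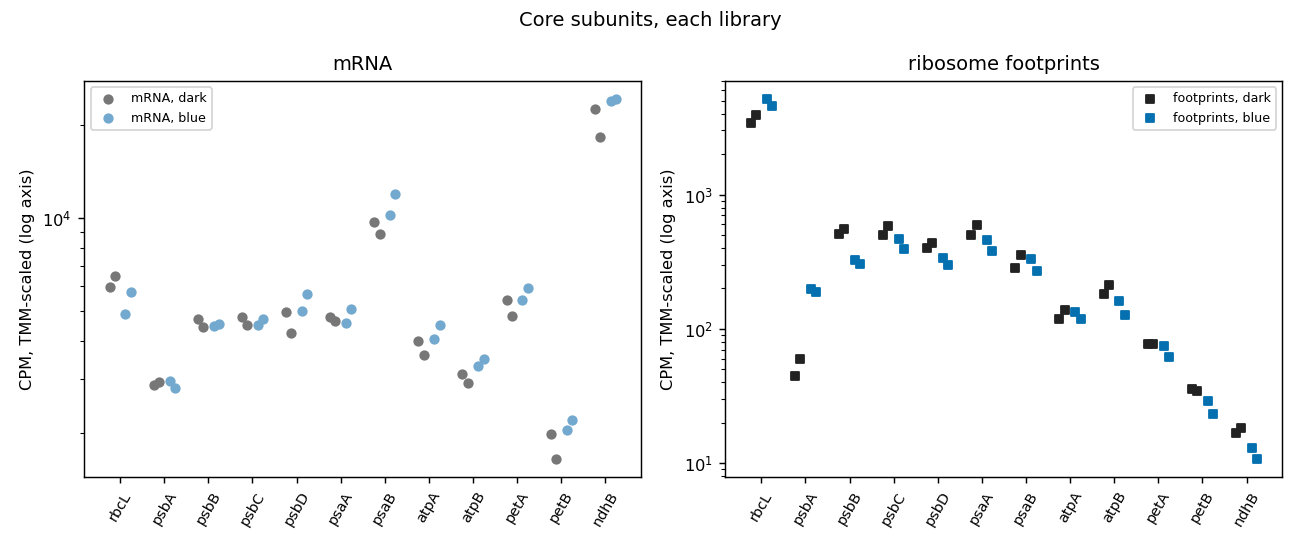
TMM-scaled CPM (log axis) of the core subunits in each library, mRNA and footprints in separate panels, with 1 point per library. In footprints psbA moves from 44.9 and 59.2 in the dark to 197 and 188 in blue light, and psbB from 508 and 553 to 324 and 305, while mRNA points of both genes overlap.

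In photosystem I, psaA and psaI fell in footprints and 3 of the 5 genes were not called. psaA and psaB encode the proteins that together bind the primary donor, and they lie in one cluster. psaA had 4761 and 4622 CPM of mRNA in the dark against 4555 and 5079 in blue light, and 496 and 594 CPM of footprints against 461 and 377. psaB had 9741 and 8907 CPM of mRNA in the dark against 10201 and 11954 in blue light, and 282 and 356 CPM of footprints against 332 and 271. The psaA footprints lay below the dark ones and those of psaB overlapped with them. psaA footprints fell by 0.38 ± 0.09 (edgeR adjusted p = 0.00075), and psaB changed by -0.08 ± 0.09 (edgeR adjusted p = 0.555). The ratio of psaA to psaB footprints per codon went from 1.72 and 1.63 in the dark to 1.36 and 1.36 in blue light. The difference between the 2 genes was not tested.

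The small photosystem I genes were psaC, which carries the terminal iron-sulphur clusters, psaI and psaJ. Footprints of psaI fell by 0.61 ± 0.19 (edgeR adjusted p = 0.0106), and those of psaC changed by -0.16 ± 0.11 without a call. psaJ had 251 and 242 CPM of mRNA in the dark against 333 and 365 in blue light, and 28.5 and 44.6 CPM of footprints against 32.8 and 35.2. Its mRNA groups did not overlap and its footprint groups did. Only its efficiency was called, with a fall of 0.75 ± 0.24 (edgeR adjusted p = 0.0423). Of the assembly genes, ycf3 changed by -0.71 ± 0.33 and ycf4 by 0.16 ± 0.34 in footprints, neither called.

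Of the 6 cytochrome b6f genes, petB, petD and petN fell in footprints and the others were not called. petA, which encodes cytochrome f, had 5407 and 4793 CPM of mRNA in the dark against 5436 and 5927 in blue light, and 76.6 and 77.4 CPM of footprints against 74.2 and 62.1. petB, which encodes cytochrome b6, had 1984 and 1651 CPM of mRNA in the dark against 2056 and 2214 in blue light, and 35.9 and 34.3 CPM of footprints against 29.3 and 23.3. In both, all footprint values in blue light lay below the dark ones. The change was -0.17 ± 0.11 for petA, not called (edgeR adjusted p = 0.244), and a fall of 0.40 ± 0.15 for petB (edgeR adjusted p = 0.0375). Footprints of petD, which encodes subunit IV, fell by 0.28 ± 0.10 (edgeR adjusted p = 0.0261). petN fell by 0.62 ± 0.24 (edgeR adjusted p = 0.045), with groups that overlapped.

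petG and petL, small subunits at the edge of the complex, went the other way. petG footprints were 5.17 and 5.86 CPM in the dark and 7.49 and 10.5 in blue light, and petL footprints were 9.38 and 5.86 against 10.6 and 10.8. Blue-light values lay above the dark ones in both genes. Neither change was called, at 0.67 ± 0.29 for petG (edgeR adjusted p = 0.0755) and 0.50 ± 0.26 for petL (edgeR adjusted p = 0.142). They share a cluster with psaJ, whose footprints changed by -0.12. edgeR called 0 of 5 cytochrome b6f genes tested in efficiency, and DESeq2 called petB lower, by 0.81 (adjusted p = 0.0157).

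In the ATP synthase 4 of 6 genes fell in footprints, atpB, atpE, atpF and atpI. atpA and atpB encode the alpha and beta subunits of the head. atpA had 3974 and 3592 CPM of mRNA in the dark against 4051 and 4484 in blue light, and 119 and 139 CPM of footprints against 134 and 118. atpB had 3118 and 2906 CPM of mRNA in the dark against 3309 and 3474 in blue light, and 181 and 214 CPM of footprints against 162 and 128. The atpA footprints overlapped and those of atpB did not. atpA changed by -0.03 ± 0.09 (edgeR adjusted p = 0.847), and atpB fell by 0.44 ± 0.10 in footprints and 0.74 ± 0.23 in efficiency (edgeR adjusted p = 0.00061 and 0.0369). The ratio of atpA to atpB footprints per codon was 0.646 and 0.637 in the dark and 0.814 and 0.906 in blue light, a difference that was not tested. atpE, the epsilon subunit encoded in the atpB cluster, fell by 0.45 ± 0.15 in footprints (edgeR adjusted p = 0.0165).

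The membrane part of the enzyme also held called falls. atpF, whose product is a stalk subunit, had 687 and 601 CPM of mRNA in the dark against 671 and 811 in blue light, and 102 and 111 CPM of footprints against 78.2 and 65.5. atpI, whose product is the channel subunit a, had 800 and 655 CPM of mRNA in the dark against 721 and 995 in blue light, and 58.2 and 68.6 CPM of footprints against 53.1 and 37.6. In both genes mRNA overlapped and footprints did not. Footprints fell by 0.56 ± 0.10 and 0.46 ± 0.14, and efficiency by 0.89 ± 0.20 and 0.83 ± 0.25, for atpF and atpI (edgeR adjusted p = 7.13e-05 and 0.00735 in footprints, 0.0042 and 0.0346 in efficiency). atpH, which encodes the rotor ring subunit and lies between them in the cluster, changed by -0.06 ± 0.12 in footprints and was not called.

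**Figure D5:**
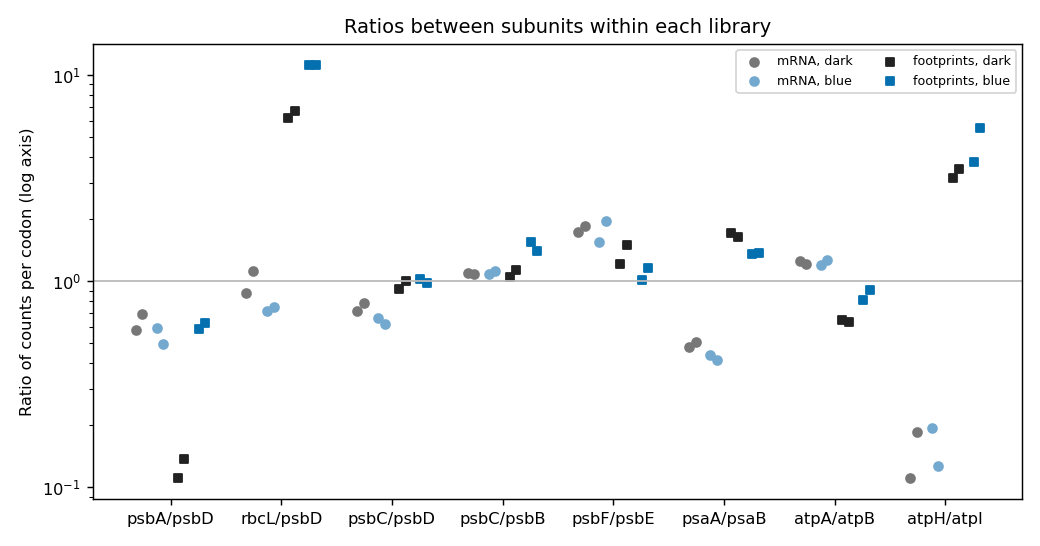
Ratios of counts per codon between subunits of the same or related complexes on a log axis, with 1 circle for each mRNA library, 1 square for each footprint library and a line at 1. The footprint psbA/psbD ratio moves from 0.112 and 0.137 in the dark to 0.588 and 0.628 in blue light, and psaA/psaB from 1.72 and 1.63 to 1.36 and 1.36.

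The NDH genes had much mRNA and few footprints in both conditions. Over the 11 genes the footprint counts summed to 290 and 331 in the dark and 322 and 204 in blue light, against 50600 and 46967 for dark mRNA and 47294 and 44195 for blue-light mRNA. ndhB had 22604 and 18378 CPM of mRNA in the dark against 23985 and 24357 in blue light, and 16.8 and 18.2 CPM of footprints against 13.0 and 10.8. ndhB (ATCG00890) lies in the inverted repeat, and its second copy carried identical mRNA counts, so its reads appear to be counted at each copy. ndhD had 7113 and 6665 CPM of mRNA in the dark against 8446 and 9470 in blue light, and 19.1 and 23.7 CPM of footprints against 14.5 and 11.4. In both genes mRNA was higher and footprints lower in every blue-light library. Footprints fell by 0.54 ± 0.20 for ndhB and 0.71 ± 0.20 for ndhD (edgeR adjusted p = 0.0349 and 0.00475), and by 0.65 ± 0.22 for ndhA (edgeR adjusted p = 0.0178). All 3 encode membrane subunits. The ndhB footprint call was lost when scaled to chloroplast counts, and its mRNA change then turned negative. Leaving out a footprint library gave footprint changes of -0.70 to -0.43 for ndhB, and its call was lost whichever library was left out. ndhF, ndhH and ndhK had changes of -0.51, -0.48 and -0.72 without a call. Efficiency of ndhD fell by 1.22 ± 0.34 (edgeR adjusted p = 0.0185). DESeq2 also called ndhA, ndhB, ndhF and ndhH lower in efficiency (adjusted p of 0.0078 to 0.0218). The edgeR median over the 6 genes tested was -1.01. The 11 mRNA changes ran from 0.13 to 0.38, and 0 were called. The 5 ndh genes not tested had 25 and 21 footprint counts together in the dark and 35 and 26 in blue light.

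rbcL (ATCG00490), the large subunit of Rubisco, was the other member called higher in footprints. It had 5954 and 6484 CPM of mRNA in the dark against 4892 and 5757 in blue light, and 3387 and 3939 CPM of footprints against 5143 and 4565. Its mRNA was lower and its footprints higher in both blue-light libraries. Footprints rose by 0.41 ± 0.07 (edgeR adjusted p = 3.81e-05). Neither the mRNA change, -0.22 ± 0.18 (edgeR adjusted p = 0.691), nor the efficiency change, 0.50 ± 0.24 (edgeR adjusted p = 0.194), was called. The ratio of rbcL to psbD footprints per codon went from 6.16 and 6.67 in the dark to 11.2 and 11.1 in blue light.

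Footprint changes were also compared within clusters, as values and with no test of differences between genes. In the psbB cluster (psbB, psbT, psbH, petB and petD) changes ran from -0.75 to -0.28, and in the cluster of psbD, psbC and psbZ from -0.46 to -0.32. atpB and atpE, which share a transcript, changed by -0.44 and -0.45. In psaI, ycf4 and petA changes ran from -0.61 to 0.16, and in petL, petG and psaJ from -0.12 to 0.67, where the upper values, of ycf4 and petG, were not called and had an SE of 0.34 and 0.29.

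Nucleus-encoded subunits of the same complexes rose almost throughout. The lists here and in the next paragraph were chosen with earlier results of these data known. Of a list of 33 such genes, 32 rose in footprints and 0 fell, against 20.9% and 16.9% of all genes, with a median of 0.81. The largest rises were in PSBO2 (1.57 ± 0.07), a protein of the water-splitting site, in ATPG (1.33 ± 0.08) and ATPD (1.17 ± 0.07) of the ATP synthase, and in PSAD2 (1.14 ± 0.07) of photosystem I. In mRNA 21 of 26 tested rose and 0 fell, against 2.85% and 1.05% of all genes, with a median of 1.90. In efficiency 2 were higher and 17 lower, against 5.2% and 4.93%, with a median of -1.15.

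Nuclear genes for proteins that act on chloroplast genes were also higher in footprints. All 7 genes listed for factors of chloroplast mRNA stability and translation rose, against 20.9% of all genes, with a median of 1.38. HCF173, needed for translation of psbA, went from 17.8 and 18.2 CPM of footprints in the dark to 208 and 212 in blue light, a rise of 3.54 ± 0.12. HCF244, which acts with it, rose by 1.38 ± 0.10, HCF107, which acts on the psbH RNA, by 2.39 ± 0.12, and HCF152, which acts on the RNA between psbH and petB, by 1.56 ± 0.27. In mRNA 0 of 6 tested were called by edgeR, with 1 at an unadjusted p under 0.05. Of 6 sigma factors, which direct the chloroplast RNA polymerase to promoters, 4 rose in footprints, led by SIG5 with 5.36 ± 0.15, SIG1 with 1.92 ± 0.13, SIG3 with 0.95 ± 0.22 and SIG6 with 0.52 ± 0.11. SIG5, known to act at the blue-light promoter of psbD, had 1.27 and 1.17 CPM of mRNA in the dark and 29.0 and 48.4 in blue light. The dark values lay near the floor, and the gene passed the count filter only through its blue-light libraries. The size of its mRNA change, 4.79 ± 0.74 (edgeR), is therefore uncertain. Whether these genes bear on the chloroplast values was not tested.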

How the data were processed

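Ribosome footprints and mRNA were compared between darkness and blue light, with 2 libraries in each of 4 groups taken from the sample titles. The deposited files hold raw counts per transcript model and, in another column, what resembles the coding length in codons, set short by a fixed number. Per the submitters' processing notes, CASAVA 1.8, Bowtie2 2.1.0, TopHat2 2.0.9 and TAIR10 were used, in roles not stated; the counting tool and its use of strand are not given in the sources used here. Of 41671 models at 33602 loci, 6285 have no length; the longest model was taken per locus. Duplicated inverted-repeat loci carry equal mRNA counts, as if multi-mapped reads were added to both copies.

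The files give locus IDs only, and gene names are the standard names of these loci. The RefSeq table for TAIR10.1 holds all 46 symbols but none of these IDs. For 32 members the file's length fits the named gene alone, for 7 it is shared with other genes, and for 7, genes with introns and ndhD, it does not equal the gene's span. No sequence or coordinate is printed.

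Fits used edgeR 4.0.16 and limma 3.58.1 in R 4.3.3: two-sided quasi-likelihood F-tests after TMM scaling and filterByExpr (minimum count 10), adjusted by Benjamini-Hochberg over all genes tested. mRNA and footprints were fitted apart, and efficiency is the assay-by-light interaction in 1 fit to the 8 libraries. That fit shares the dispersion of a gene between assays of unlike spread. Some members, psbE and atpF among them, had a smaller SE in efficiency than in mRNA alone. The SE is the fold change divided by the root of F. Common dispersions were 0.052, 0.0023 and 0.0044 for mRNA, footprints and efficiency. Tests were checked on simulated data. Values in every library are given for core subunits and for members called in mRNA or efficiency, and members called only in footprints and up to 4 genes per list, by size of the footprint change, are named with fold changes; petG and petL were added after their values were seen. The members, gene lists and tests were chosen with earlier results of these data known. Alternatives were other scalings, DESeq2 1.42.0, limma-voom, other filters, a replicate block and leaving out each library.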

Additional observations from a re-analysis of the deposited data

How the results depend on the processing

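The choice of scaling changed several counts. Scaled to chloroplast counts, members called in mRNA went from 1 to 0 higher and from 0 to 1 lower, with a median of -0.046. In footprints 1 was higher and 12 lower, against 14.2% and 11.7% of all genes. In efficiency 1 was lower, against 1.18% of all genes, with a median of -0.39. Under that scaling 21 of 45 members turned in mRNA and 3 of 40 in efficiency, among them, of the core and called genes, psaA (-0.24), psaB (-0.027), psbD (-0.059), petA (-0.12), petB (-0.036), atpA (-0.099), atpB (-0.10) and ndhB (-0.026), and atpA in efficiency (0.021). Scaled to chloroplast counts without rbcL and psbA, chosen after seeing the data, footprints gave 4 higher and 0 lower. Of all genes, 31.6% were higher and 3.76% lower. The median of members was -0.044, and 12 of 41 turned, among them psaB (0.29), psbC (0.048), psbE (0.045), petA (0.19), petD (0.083) and atpA (0.34). Scaled on nuclear genes, 7 were lower in efficiency, against 3.70% of all genes. The mRNA count was 0 under the DESeq2 Wald test, with no filter, at 10 CPM or more, and with the replicate block. Of all genes, 0.743% to 2.88% were called higher in those fits. Footprints gave 6 lower under the Wald test, against 7.51% of all genes. The replicate block gave 6 lower in efficiency, against 3.61% of all genes. Within each assay, same-numbered dark and blue-light libraries did not deviate together (correlation 0.029 in mRNA and 0.0086 in footprints). Whether same-numbered mRNA and footprint libraries came from the same material was not examined. Leaving out each library gave 0 to 1 higher in mRNA with medians of 0.12 to 0.33, 2 to 3 higher and 5 to 19 lower in footprints with -0.48 to -0.26, and 0 to 19 lower in efficiency with -0.85 to -0.65. Of the core and called genes these turned: in mRNA psaA (-0.043 to 0.11), psbA (-0.081 to 0.026) and psbC (-0.064 to 0.020), and in footprints psaB (-0.24 to 0.10) and atpA (-0.13 to 0.091). Member shares ranged over 31.2% to 32.3% and 30.7% to 31.0% in mRNA, and 92.0% to 92.2% and 93.8% to 94.1% in footprints. Without second copies of duplicated loci they were 39.9% and 38.7% in mRNA and 93.5% and 95.04% in footprints; without psbI in mRNA or rbcL in footprints, chosen after seeing the data, 28.3%, 27.1%, 85.9% and 86.2%. The cause was not tested. psbA kept its calls in footprints and efficiency under every alternative run. Depth limited the 5 untested ndh genes and petN most.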

Other observations

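The 46 genes were not alone in the chloroplast. The other chloroplast loci with a length hold ribosomal protein, RNA polymerase and other genes. They also hold second copies of duplicated loci, among them that of the member ndhB, so they are not all separate genes. In footprints 0 of 36 tested were higher and 12 lower, against 20.9% and 16.9% of all genes tested. Their median mRNA change was 0.26. In mRNA 0 of 42 were called by edgeR (7 at an unadjusted p under 0.05), against 3.9% of all genes. In efficiency 6 of 36 were lower, against 4.93% of all genes.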
